A study of Mus musculus with 16 samples.

Results

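A list of 40 genes that mark T cells and intraepithelial lymphocytes was followed through RNA-seq of mouse ileum. The list holds the CD3 complex and its signalling partners, the CD4 and CD8 coreceptors, adhesion receptors and integrins, granzymes and other effector molecules, natural killer-type receptors, chemokine receptors, and regulatory T cell genes. Members were found by their symbol in the deposited count table, and all 40 were among its 24940 genes. Of these, 38 passed the filter on low counts in each of the 7 comparisons; Eomes, a transcription factor of memory CD8 T cells and natural killer cells, and Klre1, a natural killer cell lectin receptor, did not and are given as levels only.

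The study deleted Bcl6, a transcriptional repressor, in hepatocytes with a Cre recombinase driven by the albumin promoter, and asked among other things how the ileum responds. PolyA RNA was sequenced from ileum taken next to the cecum of C57BL/6 mice. There were 4 groups of 4 libraries: male Bcl6 fl/fl controls (MWT), male liver knockouts (Bcl6LKO, MLKO), female Bcl6 fl/fl controls (FWT) and female liver knockouts (FLKO). Every group carries the floxed Bcl6 alleles and the controls lack the Cre, so a difference between genotypes includes any effect of the Cre itself, and the lymphocytes described here are not the cells in which Bcl6 was deleted. Ages were not given in the sources used here, and the mice were fed ad libitum or briefly fasted.

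Intraepithelial lymphocytes are T cells that sit between the epithelial cells of the gut. They recognise antigen through a T cell receptor coupled to the CD3 chains, adhere to E-cadherin on the epithelium through the integrin CD103 paired with beta 7, and in the small intestine are mostly CD8-positive cells loaded with granzymes. Many carry a CD8 alpha homodimer rather than the alpha-beta heterodimer of conventional CD8 T cells. CD4 T cells, among them Foxp3-positive regulatory T cells, lie mainly in the lamina propria, and lymphoid aggregates in the wall of the gut hold B cell follicles with T cells around them.

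The libraries held 15739601 to 20467119 counts in genes, apart from FLKO replicate 1 with 60324336. The 40 members together took 6319 to 32542 counts per library. Xist was at 368 to 533 CPM (the depth-normalised count of edgeR, after TMM scaling) in the female libraries and at no more than 0.281 CPM in the male ones, so the sexes matched their labels. Bcl6 was at 14.0 to 17.9 CPM in MWT, 17.2 to 21.9 in MLKO, 9.24 to 15.1 in FWT and 15.2 to 26.1 in FLKO; the albumin promoter drives Cre in hepatocytes, so these levels do not check the genotype. The ileal epithelial marker Fabp6, which codes for a bile acid-binding protein, lay between 2690.4 and 5422 CPM in all 16 libraries.

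In 4 libraries the B cell markers stood apart, and this touches the T cell genes below. A list of 13 B cell markers (Ms4a1 and others) summed to 184 CPM in MWT replicate 2, 121 in FWT replicate 3, 313 in FLKO replicate 2 and 579 in FLKO replicate 3, against 42.6 to 64.3 CPM in the other 12. No MLKO library was among the 4, which are called B cell-rich below. Markers of lymphoid tissue stroma, which include the follicle chemokine Cxcl13, summed to 230 CPM in FLKO replicate 2 and 344 CPM in FLKO replicate 3, and to between 103 and 154 CPM elsewhere. Each comparison is therefore given with and without these 4 libraries, a division made after the data were seen. In bulk tissue, fewer lymphocytes and less RNA per lymphocyte cannot be told apart.

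Promoter sequence is shown for 3 members on which the comparisons below turn: Gzma and Gzmb, the granzymes that varied together, and Cxcr3, the member with the smallest adjusted p of any comparison by edgeR with all libraries. Each run is the 250 bases just before the RefSeq start site (GRCm38.p6), read 5′ to 3′ on the strand of the gene, which is the minus strand for all 3. Capitals mark the core letters bound by RUNX factors, TGTGGT or its reverse complement ACCACA. The windows are chr13:113100982-113101231 for Gzma, chr14:56262335-56262584 for Gzmb and chrX:101734148-101734397 for Cxcr3. The bases just after each window were looked for in transcript sequences of the same gene. They were found for Gzma and Cxcr3 and not for Gzmb, whose start site is therefore less certain.
Gzma: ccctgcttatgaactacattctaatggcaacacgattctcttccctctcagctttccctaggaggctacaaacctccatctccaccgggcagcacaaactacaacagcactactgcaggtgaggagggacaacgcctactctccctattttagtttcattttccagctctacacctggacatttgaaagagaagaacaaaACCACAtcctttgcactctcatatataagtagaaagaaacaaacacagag
Gzmb: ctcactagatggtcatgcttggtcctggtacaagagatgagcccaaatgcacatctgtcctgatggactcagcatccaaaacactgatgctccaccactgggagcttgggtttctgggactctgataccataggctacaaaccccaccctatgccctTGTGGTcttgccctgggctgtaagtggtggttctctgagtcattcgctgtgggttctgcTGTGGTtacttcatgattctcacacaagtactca
Cxcr3: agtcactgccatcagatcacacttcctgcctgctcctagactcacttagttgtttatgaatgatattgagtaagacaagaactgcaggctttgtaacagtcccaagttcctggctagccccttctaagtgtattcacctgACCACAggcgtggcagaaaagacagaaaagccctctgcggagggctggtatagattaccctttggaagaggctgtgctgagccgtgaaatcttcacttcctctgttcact

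The RUNX letters occurred 1 time in the Gzma window, 2 times in that of Gzmb and 1 time in that of Cxcr3. RefSeq windows that start at the position given in the count table were found for 26 members, and 10 of the 26 (38.5%) held the RUNX letters on either strand, against 3832 of 27025 genes (14.2%) when the first listed window of every gene was searched. The core letters of T-box factors such as T-bet, GGTGTG or CACACC, were in 8 of the 26 windows (30.8%) and in 4365 of the 27025 (16.2%), and in none of the 3 shown. The 2 motifs share the letters GGT or ACC at one end and can overlap. A match of letters is a description of the sequence and not a binding site.

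Per kilobase of exon, granzyme A and the chemokine Ccl5 stood far above every other member. Gzma, a serine protease of cytotoxic granules, averaged 87.7 ± 24.9 CPM per kb (SD, n = 16 libraries). Ccl5, which attracts T cells and is made by activated CD8 T cells, averaged 77.1 ± 22.9. Their ranges over the libraries overlapped, and whether the 2 differed within libraries was not tested. Gzmb followed at 27.1 ± 7.47, then Cd7 at 16.5 ± 3.94, Cd3g at 12.1 ± 2.82, Itgb7 at 11.7 ± 2.36 and Nkg7 at 11.2 ± 2.58 CPM per kb. Perforin (Prf1), which forms the pore through which granzymes enter a target cell, was at 0.866 CPM per kb, and the lowest member was Eomes at 0.0832. Cd8a was above Cd8b1 per kilobase in all 16 libraries, with a ratio of 2.34 to 5.71 and a median of 2.70. Cd8a and Cd4 were close to each other per kilobase, with a ratio between 0.677 and 1.59.

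**Figure D1:**
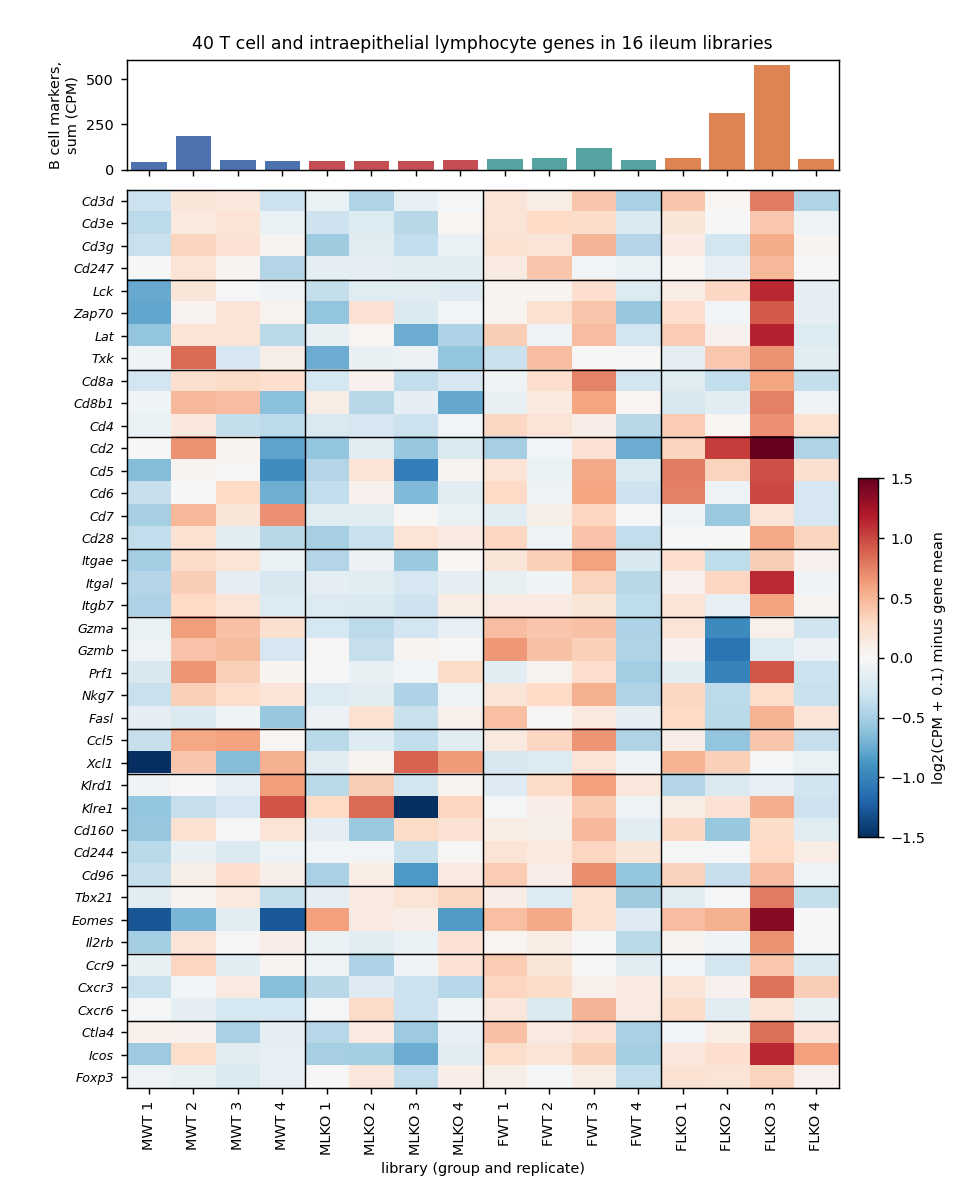
Lower panel: log2(CPM + 0.1) of each of the 40 members minus its mean over the 16 libraries, with colours limited to 1.5 in either direction, rows grouped by role and columns by group. Upper panel: the sum of 13 B cell markers in CPM. FLKO replicate 3, with 579 CPM of B cell markers, is high for most members, while FLKO replicate 2, with 313 CPM, is low for Gzma, Gzmb and Prf1.

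The members did not all vary together across libraries. The 40 together summed to between 371 CPM in FWT replicate 4 and 673 CPM in FLKO replicate 3. Coefficients of variation over the 16 libraries ran from 13.9% for Foxp3 to 66.2% for Cd2 among the tested members. Against Cd3e, the closest members were the epithelium-binding integrin chains Itgb7 (Pearson r = 0.91, Spearman rho = 0.87) and Itgae (r = 0.91, rho = 0.93) and the neighbouring CD3 gene Cd3g (r = 0.90, rho = 0.89), each over the log2 CPM of 16 libraries with a permutation p, adjusted by Benjamini-Hochberg over 78 relations, of 0.00026 to 0.00029 for r. Dropping the 2 libraries whose Cd3e lay farthest from its median left r at 0.89, 0.86 and 0.90. Against Gzma, the closest were Ccl5 (r = 0.89, rho = 0.87), Gzmb (r = 0.88, rho = 0.82) and Nkg7 (r = 0.87, rho = 0.82), with adjusted permutation p values for r of 0.00026, 0.00029 and 0.00029, and dropping the 2 with the most extreme Gzma left r at 0.86, 0.79 and 0.89. Taken as deviations from the group means, the same 6 relations had r between 0.87 and 0.95. On that scale Ccl5 (0.90) and Nkg7 (0.89) followed Cd3e as closely as Itgae (0.89) did. Gzma had r of 0.84 with each of Cd3g, Itgb7 and Itgae, 0.76 with Cd3e and 0.75 with Cd4. The members closest to Cd3e and those closest to Gzma were therefore not separate sets. Cd2, Foxp3 and Eomes had r of 0.04, -0.03 and -0.10 with Gzma over the 16 libraries, and 0.25, 0.41 and 0.38 as deviations from the group means. The libraries share tissue composition as well as group, so these relations do not show that the genes are linked within a cell.

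Itgal was highest in the 4 B cell-rich libraries, and Cd2 and Lck were highest in 1 of them, FLKO replicate 3. Gzma lay at both ends of its range in the B cell-rich libraries. Itgal, the CD11a chain of the integrin LFA-1, which B cells carry too, was at 57.7 CPM in FLKO replicate 3, 34.3 in MWT replicate 2, 33.3 in FWT replicate 3 and 33.0 in FLKO replicate 2, and at 19.5 to 27.6 CPM in the other 12. Those 4 libraries were its 4 highest. Cd2, an adhesion receptor of T cells and B cells, was at 9.66 CPM in FLKO replicate 3 and 5.68 in FLKO replicate 2. Among the 12 it was at most 3.46 CPM, and FWT replicate 3 lay below that. Lck, the kinase that starts T cell receptor signalling, was at 35.5 CPM in FLKO replicate 3 and at 9.59 to 17.5 among the 12. Gzma was at 113 CPM in MWT replicate 2, its highest library, at 99.9 in FWT replicate 3, at 77.4 in FLKO replicate 3 and at 37.9 in FLKO replicate 2, its lowest. FLKO replicate 2 also had the lowest Gzmb (18.3 CPM) and Prf1 (0.794 CPM) of all 16 libraries, and Prf1 was highest in FLKO replicate 3, at 3.31 CPM. Because the 4 libraries lie apart from the rest, no correlation with the B cell markers was computed.

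**Figure D2:**
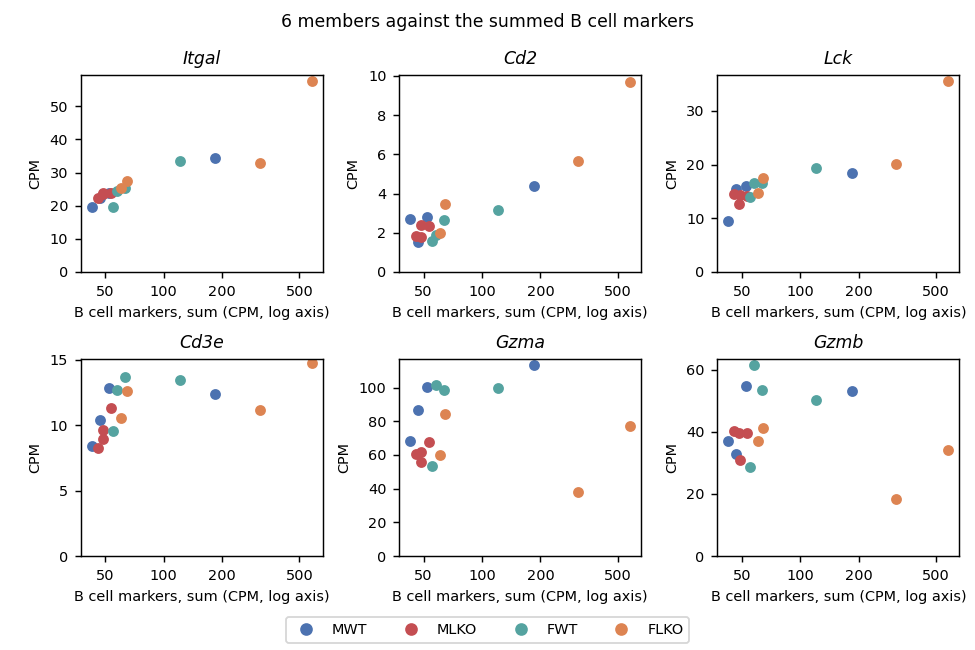
Level in CPM of 6 members (y axis) against the sum of 13 B cell markers in CPM (x axis, log scale), 1 point per library, coloured by group. The 4 points above 100 CPM are the highest for Itgal, while for Gzma and Gzmb the FLKO point at 313 CPM is the lowest of all, and for Gzma the MWT point at 184 CPM is the highest.

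The first question was whether the ileal T cell genes differ between liver knockout and control males. In males, Gzma was lower in every knockout library than in any control library, and no member passed the test across all genes. Gzma was at 68.5, 113, 100 and 86.8 CPM in MWT replicates 1 to 4 and at 61.5, 55.9, 60.6 and 67.5 CPM in MLKO. The groups did not overlap, but the nearest libraries were 68.5 and 67.5 CPM. The log2 fold change was -0.58 ± 0.13 (SE, n = 4 against 4), with an adjusted p of 0.311 by edgeR's quasi-likelihood test with Benjamini-Hochberg adjustment, so Gzma was not called. With DESeq2 the same gene was called, at -0.58 with an adjusted p of 0.0046, and it was called by edgeR without MWT replicate 1, at -0.70 with an adjusted p of 0.0204. Without the B cell-rich MWT replicate 2 the log2 fold change was -0.46 and the adjusted p 0.321. The sample titles carry a number whose meaning the labels do not give, and every MWT library has a lower one than every MLKO library, so its order and the genotype cannot be told apart in males. With that number as a covariate Gzma was at -0.67 with an adjusted p of 0.9998 by edgeR.

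By edgeR, 0 of the 38 tested members had an adjusted p below 0.05 in males, against 0.0527% of all 15169 genes (8 genes). At an unadjusted p below 0.05 there were 5, all with lower means in MLKO, against 5.29% of all genes in either direction and 2.28% lower. Gzma was the only member whose groups did not overlap, against 1.3% of all genes not overlapping with MLKO lower. Log2 fold changes were below 0 for 28 of the 38 and their median was -0.12, beside 50.8% of all genes below 0, whose median was near 0. Without MWT replicate 2, 24 of the 38 were below 0, the median was -0.04, and 1 member, Gzma, had an unadjusted p below 0.05. The shares of all genes for these counts were not taken in that fit, where edgeR called 0 members and 10 of 15310 genes.

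The other 4 members with an unadjusted p below 0.05 in males were Ccl5, Cd8a, Cd3g and Nkg7, and their groups overlapped. Ccl5 was at 30.5, 58.3, 59.3 and 39.8 CPM in MWT and at 29.5, 34.2, 30.3 and 35.0 in MLKO, a log2 fold change of -0.53 ± 0.21. Cd8a, the CD8 alpha chain, was at 17.1, 24.7, 25.6 and 24.8 CPM in MWT and 17.4, 21.9, 16.2 and 17.5 in MLKO (-0.33 ± 0.13). MWT replicate 1 was the lowest control for both, at the level of the knockouts. Cd3g, a chain of the CD3 complex, was at 12.7 ± 2.44 CPM (SD, n = 4) in MWT and 9.79 ± 1.31 in MLKO, and Nkg7, a protein of cytotoxic granules, at 9.72 ± 1.90 and 7.56 ± 0.868. The adjusted p values of these 4, from edgeR, lay between 0.869 and 0.911. The spread was larger among the controls than among the knockouts: the SD of Gzma was 19.2 CPM in MWT and 4.76 in MLKO, and that of Ccl5 was 14.2 and 2.76.

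Gzmb, the granzyme that cuts caspases in the target cell, was at 44.4 ± 11 CPM in MWT and 37.7 ± 4.49 in MLKO, with overlapping groups and a log2 fold change of -0.23 ± 0.17. The remaining cytotoxic members gave no call in males either. Prf1 had a log2 fold change of -0.20 and Fasl, the ligand of the death receptor Fas, 0.24. The regulatory T cell factor Foxp3 was at 7.60 ± 0.334 CPM in MWT and 8.27 ± 1.30 in MLKO (0.13 ± 0.14). The CD4 coreceptor was at 18.2 ± 3.33 and 17.6 ± 1.54 CPM (-0.04 ± 0.12).

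In females the same contrast gave a different set of leading members, none of which passed the test. Of the 38, 0 were called by edgeR and 0 by DESeq2, against 0.0392% of 15298 genes by edgeR, and 3 had an unadjusted p below 0.05 against 11.7% of all genes. No member's groups failed to overlap, against 6.31% of all genes. Log2 fold changes were above 0 for 22 and below 0 for 16, with a median of 0.11, beside 51.8% above 0 and a median of 0.01 over all genes. Without the 3 B cell-rich female libraries the median was 0.06, with the B cell marker level as a covariate it was -0.08, and without FLKO replicate 3 it was -0.07.

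Klrd1, the CD94 chain of natural killer lectin receptors, was at 1.55, 2.20, 2.80 and 2.03 CPM in FWT and at 1.29, 1.53, 1.63 and 1.43 CPM in FLKO. The groups overlapped by 1 library, and the log2 fold change was -0.56 ± 0.22 with an adjusted p of 0.361 by edgeR. Cd5, an inhibitory receptor of T cells, was at 5.91, 4.79, 7.62 and 4.39 CPM in FWT and 8.88, 6.47, 10.1 and 6.05 in FLKO (0.48 ± 0.21, adjusted p = 0.4 by edgeR). Cd2 was at 1.89, 2.64, 3.18 and 1.59 CPM in FWT and 3.46, 5.68, 9.66 and 1.97 in FLKO. The 2 highest FLKO libraries for Cd2 are the 2 with most B cell markers: the log2 fold change was 1.13 ± 0.48 with them and 0.47 ± 0.30 without the B cell-rich libraries.

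Gzma was also spread widely within the female groups. It was at 101, 98.4, 99.9 and 53.4 CPM in FWT and at 84.1, 37.9, 77.4 and 59.9 CPM in FLKO. FWT replicate 4 stood far below the other controls, and it had the lowest sum of all 40 members. The log2 fold change was -0.44 ± 0.31 with an adjusted p of 0.6 by edgeR. Gzmb was at 61.4, 53.4, 50.1 and 28.7 CPM in FWT and 41.2, 18.3, 34.1 and 37.0 in FLKO (-0.55 ± 0.31, adjusted p = 0.523 by edgeR), with FWT replicate 4 again the lowest control. Without the B cell-rich libraries Gzma was at -0.22 ± 0.39 and Gzmb at -0.29 ± 0.38.

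**Figure D3:**
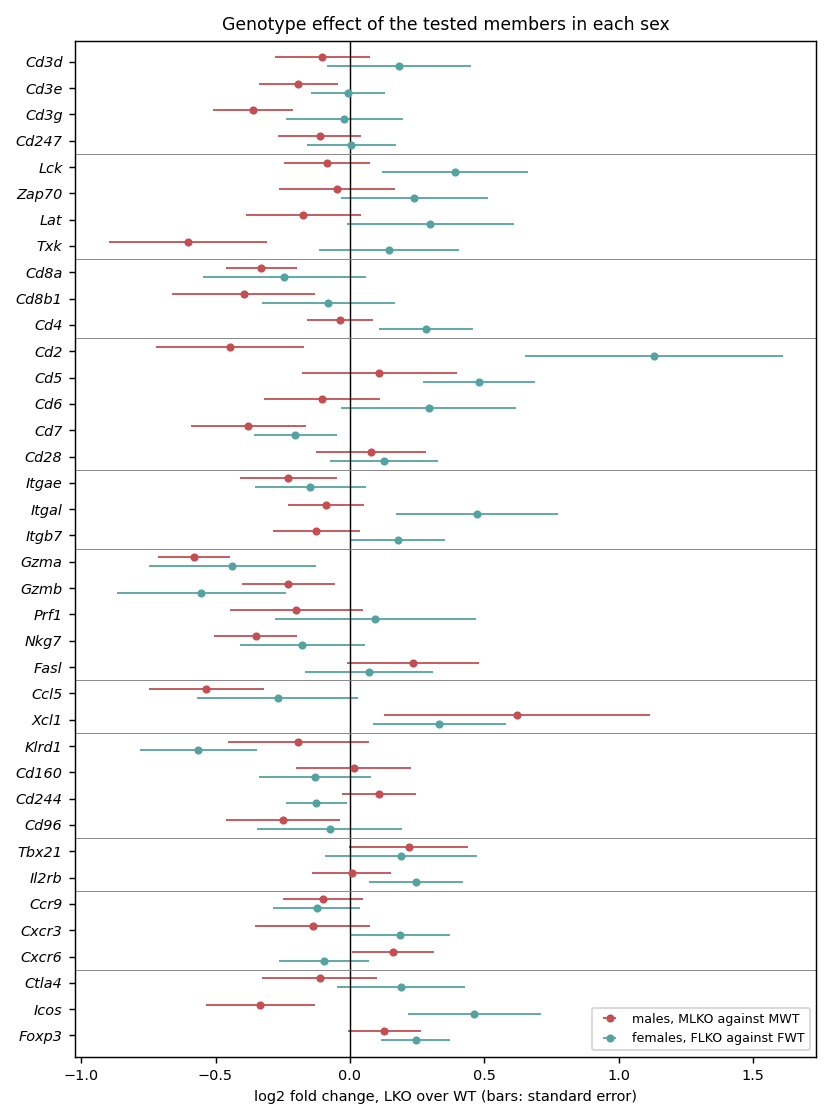
Log2 fold change of liver knockout over control with its standard error for each of the 38 tested members, in males and in females (4 against 4 libraries each), with lines between roles. Gzma, Gzmb and Ccl5 are below 0 in both sexes, Cd2 is at -0.45 in males and 1.13 in females, and no member has an adjusted p below 0.05 in either sex.

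Over both sexes, with sex as a term, no member was called by edgeR or by DESeq2, against 0.269% of 15598 genes by edgeR. There were 2 members with an unadjusted p below 0.05, Gzma (-0.51 ± 0.17) and Klrd1 (-0.38 ± 0.17), against 11.2% of all genes. Ccl5 followed at -0.40 ± 0.19, Cd7, a receptor of T and natural killer cells, at -0.29 ± 0.14, and Gzmb at -0.40 ± 0.19. Their adjusted p values, from edgeR, lay between 0.26 and 0.452. The median over the 38 members was 0.03, with 20 above and 18 below 0, beside 50.2% of all genes above 0, and it was -0.07 without FLKO replicate 3. Without the B cell-rich libraries the median was 0.01, Gzma was at -0.37 ± 0.17 and Klrd1 at -0.36 ± 0.20. By edgeR neither then had an unadjusted p below 0.05, while Cd8a, at -0.28 ± 0.11, did. The share of all genes at that threshold was not taken in that fit. Cd7 illustrates the overlap: it was at 11.8, 23.6, 18.9 and 26.8 CPM in MWT, 14.6, 14.9, 16.9 and 15.6 in MLKO, 17.5 ± 2.49 in FWT and 15.1 ± 3.35 in FLKO.

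The difference between the genotype effects of the sexes was tested as an interaction, and no member and no gene of 15598 (0%) passed by edgeR or by DESeq2. There were 2 members at an unadjusted p below 0.05, Cd2 (-1.58 ± 0.59) and Icos (-0.80 ± 0.33), against 5.64% of all genes. Txk, a kinase of T cell receptor signalling at 1.98 ± 0.776, 1.30 ± 0.315, 1.77 ± 0.435 and 2.01 ± 0.609 CPM in MWT, MLKO, FWT and FLKO, followed with -0.76 ± 0.40. These values moved with the B cell-rich libraries. Without those libraries Cd2 was at -0.64 ± 0.41, Icos at -0.54 ± 0.33 and Txk at -0.07 ± 0.40, and 0 members had an unadjusted p below 0.05. The share of all genes at that threshold was not taken in that fit, where edgeR called 0 of 15780 genes. For Gzma the interaction was -0.15 ± 0.36, so its genotype effect was not shown to differ between the sexes.

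The second question was how males and females differ. Over both genotypes, 5 members were lower in males: Cxcr3, Cd244, Icos, Cd5 and Cd4. Cd4 and Icos mark helper and regulatory T cells, while the other 3 are carried by several kinds of T cell. They were 5 of 38 tested members (13.2%), by edgeR with genotype as a term, against 11% of all 15598 genes called in either direction and 5.44% called lower in males. No member was higher in males. DESeq2 called 6 members, against 2426 of 15737 genes in either direction. At an unadjusted p below 0.05 by edgeR there were 12, all lower in males, against 29.3% of all genes in either direction and 14.8% lower. Log2 fold changes were below 0 for 32 of the 38 with a median of -0.24, beside 50.2% of all genes below 0, whose median was near 0.

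Cxcr3, the receptor for the interferon-induced chemokines Cxcl9 and Cxcl10, gave the clearest difference. It lies at chrX:101731535-101734147 (mm10, minus strand). It was at 2.37, 2.93, 3.31 and 1.90 CPM in MWT, 2.24, 2.63, 2.40 and 2.22 in MLKO, 3.79, 3.69, 3.18 and 3.29 in FWT, and 3.47, 3.17, 5.39 and 3.93 in FLKO. Of the 8 males, 7 were below the lowest female, and the exception was MWT replicate 3. The log2 fold change was -0.58 ± 0.14 with an adjusted p of 0.0142 by edgeR, and without the 4 B cell-rich libraries it was -0.57 ± 0.14 with an adjusted p of 0.0312.

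Cd244, a receptor of natural killer and CD8 T cells that binds Cd48 (chr1:171559193-171585316), was at 5.70, 7.01, 6.52 and 7.18 CPM in MWT, 7.32, 7.35, 5.96 and 7.66 in MLKO, 8.72, 8.37, 9.49 and 8.61 in FWT, and 7.41, 7.45, 9.32 and 8.18 in FLKO. Again 7 of the 8 males were below the lowest female. The log2 fold change was -0.30 ± 0.08 with an adjusted p of 0.0303 by edgeR, and -0.28 with an adjusted p of 0.114 without the B cell-rich libraries, where it was no longer called.

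Icos, a costimulatory receptor of helper and regulatory T cells (chr1:60977914-61000321), was at 3.08, 5.48, 4.05 and 4.16 CPM in MWT, 3.20, 3.17, 2.69 and 4.09 in MLKO, 5.51, 5.28, 5.87 and 3.18 in FWT, and 5.10, 5.43, 10.1 and 7.01 in FLKO. FWT replicate 4 lay among the males and the B cell-rich MWT replicate 2 among the females. The log2 fold change was -0.65 ± 0.19 (adjusted p = 0.0335 by edgeR), and -0.58 ± 0.17 (adjusted p = 0.0496) without the B cell-rich libraries. With the B cell marker level as a covariate Icos was at -0.45 (adjusted p = 0.0896 by edgeR) and was not called.

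Cd4 (chr6:124864693-124888200) was at 18.9, 22.6, 15.8 and 15.4 CPM in MWT, 17.3, 17, 16.2 and 19.8 in MLKO, 25.1, 23.4, 21.7 and 15.2 in FWT, and 26.5, 20.7, 32.8 and 23.8 in FLKO. All 8 males were below the female median of 23.6 CPM, but FWT replicate 4 was the lowest library of all. The log2 fold change was -0.40 ± 0.12 (adjusted p = 0.0368 by edgeR), and -0.43 ± 0.11 (adjusted p = 0.0298) without the B cell-rich libraries. With the B cell marker level as a covariate Cd4 was at -0.31 (adjusted p = 0.102 by edgeR) and was not called. Cd5 (chr19:10718143-10738974) was at 4.08 ± 1.36 CPM in MWT, 4.35 ± 1.55 in MLKO, 5.68 ± 1.45 in FWT and 7.88 ± 1.94 in FLKO, with a log2 fold change of -0.68 ± 0.19 (adjusted p = 0.0338 by edgeR). Without the B cell-rich libraries Cd5 gave -0.64 and an adjusted p of 0.0805 and was not called.

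**Figure D4:**
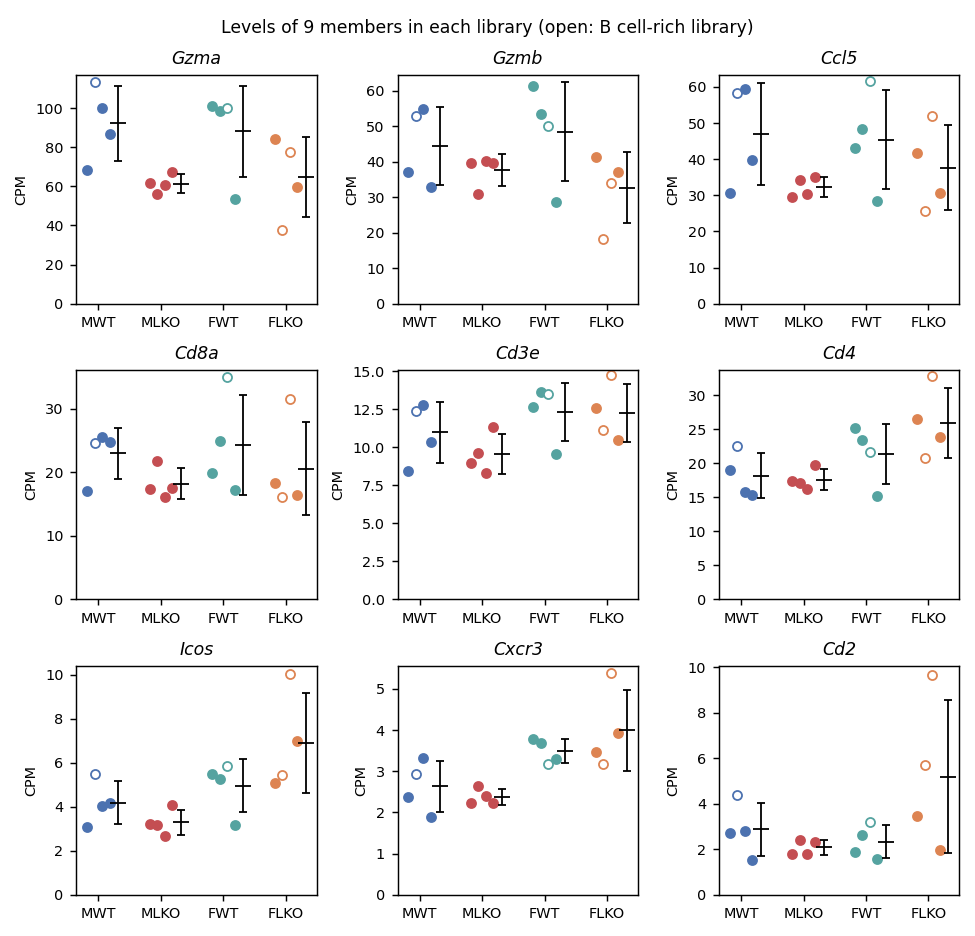
CPM of 9 members in each library by group (y axes start at 0), with open circles for the 4 B cell-rich libraries and the group mean ± SD beside the points. All MLKO libraries are below all MWT libraries for Gzma, and Cxcr3 is below the lowest female level in 7 of the 8 males.

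No cytotoxic effector was called between the sexes. By edgeR none had an unadjusted p below 0.05, and the log2 fold changes were -0.01 ± 0.17 for Gzma, 0.03 ± 0.19 for Gzmb and -0.31 ± 0.16 for Fasl. The value of Fasl was as far below 0 as that of Cd244, with a larger SE. Ccl5 was at -0.09 ± 0.19 and Cd8a at -0.13 ± 0.17. Within other roles, all 4 CD3 chains (-0.30 to -0.22), all 4 receptor-proximal signalling genes (-0.50 to -0.22) and all 3 integrins (-0.33 to -0.20) were below 0, with 1, 2 and 1 of them at an unadjusted p below 0.05 and none called. Foxp3, at 8.14 ± 1.21 CPM in FWT and 9.63 ± 0.739 in FLKO, was at -0.16 ± 0.09 and Ctla4, an inhibitory receptor of regulatory T cells, at -0.38 ± 0.16. That Cd4 or Icos differed from Gzma or Cd8a in the size of the sex difference was not tested.

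**Figure D5:**
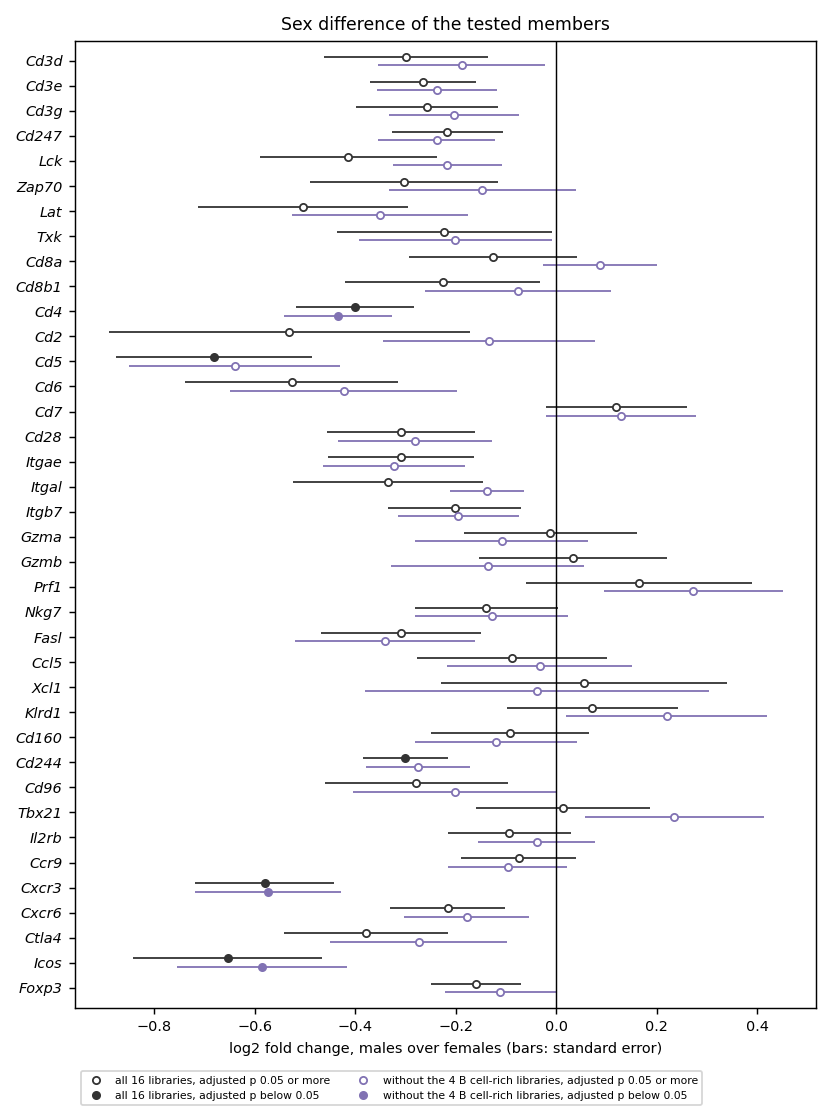
Log2 fold change of males over females with its standard error for the tested members, with all 16 libraries and without the 4 B cell-rich libraries; filled points have an adjusted p below 0.05 by edgeR. With all libraries Cxcr3, Cd244, Icos, Cd5 and Cd4 are filled, and without the B cell-rich libraries Cxcr3, Icos and Cd4 are.

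Other tissue markers differed between the sexes as well. Of 7 smooth muscle markers, 6 were called lower in males (median of the 7, -0.38), against 848 of all 15598 genes (5.44%). The 7 summed to 3110.2 to 4091 CPM in males and 3999.8 to 6089.7 CPM in females. Of 11 epithelial markers, 4 were called higher in males (median of the 11, 0.15), against 875 of all 15598 genes. The 11 summed to 21420.2 to 24548 CPM in males and 19852 to 23813 in females. The 13 B cell markers had a median of -1.33 and none was called. The part of tissue composition in the T cell values was not tested. With the number in the sample titles as a covariate 0 members were called by edgeR and 326 genes in all. The 5 members called without it then had log2 fold changes of -0.65 to -0.29. With sets of adjoining numbers as a factor 0 members and 90 genes were called, and the 5 had -0.84 to -0.31. The lowest title numbers all belong to females and the highest all to males. The number is thus partly tied to sex, and these fits cannot fully separate them.

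Within controls alone, MWT against FWT, no member was called by edgeR or DESeq2, against 0.25% of 15229 genes by edgeR. Cd244 was the 1 member whose groups did not overlap, against 3.91% of all genes not overlapping with males lower, and its log2 fold change was -0.42 ± 0.12 with an adjusted p of 0.172 by edgeR. Cxcr6, a chemokine receptor of tissue-resident T cells, was the other with an unadjusted p below 0.05, at 5.89 ± 0.506 CPM in MWT and 7.48 ± 1.56 in FWT (-0.35 ± 0.16), against 13.9% of all genes. Cxcr3 (-0.42 ± 0.20), Cd5 (-0.50 ± 0.24) and Fasl, at 1.32 ± 0.211 CPM in MWT and 1.74 ± 0.323 in FWT (-0.40 ± 0.24), followed. The median over the 38 was -0.15, and -0.14 without the B cell-rich libraries.

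Among liver knockouts, MLKO against FLKO, the differences were larger but again no member was called by edgeR, against 0.0984% of 15250 genes. With DESeq2, 7 members were called, against 1039 of 15037 genes. At an unadjusted p below 0.05 there were 14, all lower in males, against 22.6% of all genes in either direction and 11.7% lower. In 7 of the 38 members the groups did not overlap with males lower, against 6.46% of all genes: Cd247, Lck, Cd4, Cd5, Itgal, Cxcr3 and Icos. Icos led with -1.05 ± 0.23 (adjusted p = 0.0674 by edgeR), followed by Cd4 with -0.56 ± 0.13 (0.0708) and Cxcr3 with -0.75 ± 0.20 (0.084). Since 2 of the 4 FLKO libraries and no MLKO library are B cell-rich, this contrast carries the B cell difference: the 10 tested B cell markers had a median of -2.42.

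Without FLKO replicates 2 and 3, 7 members had an unadjusted p below 0.05 in this contrast and the median over the 38 went from -0.35 to -0.23. The share of all genes at that threshold was not taken in this fit, where edgeR called 0 members and 33 of 15523 genes. Members named above for being high in some or all of the B cell-rich libraries are bound to move toward 0 without them, so their values are a description only. Cd2 went from -1.30 ± 0.44 to -0.45 ± 0.26, Lck from -0.65 ± 0.26 to -0.23 ± 0.12 and Itgal from -0.62 ± 0.26 to -0.19 ± 0.09. Cd4, at -0.56 and -0.52, and Cxcr3, at -0.75 and -0.64, moved less. The remaining leading members of their roles showed overlapping groups. The beta 7 chain Itgb7 was at 27.5 ± 3.62 CPM in MLKO and 35.2 ± 7.98 in FLKO, Il2rb, the receptor chain for interleukin 2 and interleukin 15, at 11.9 ± 1.54 and 13.9 ± 3.70, and Ccr9, the gut-homing chemokine receptor, at 11 ± 2.08 and 11.5 ± 2.68.

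The means of the other groups, for members named above in only some of them, were as follows (SD, n = 4 each). Lck was at 14.9 ± 3.75 CPM in MWT, 13.9 ± 0.849 in MLKO, 16.7 ± 2.17 in FWT and 22.0 ± 9.28 in FLKO, and Itgal at 25.0 ± 6.46 CPM in MWT, 23.3 ± 0.742 in MLKO, 25.7 ± 5.65 in FWT and 35.9 ± 14.8 in FLKO. Itgb7 was at 30.3 ± 7.21 CPM in MWT, 27.5 ± 3.62 in MLKO, 31.1 ± 5.22 in FWT and 35.2 ± 7.98 in FLKO. For these the FLKO mean was the highest and carried the widest spread.

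Cd3g was at 12.7 ± 2.44 CPM in MWT, 9.79 ± 1.31 in MLKO, 13.4 ± 3.42 in FWT and 13.2 ± 3.21 in FLKO. Cd8a was at 24.3 ± 7.83 CPM in FWT and 20.6 ± 7.40 in FLKO, and Ccl5 at 45.4 ± 13.7 and 37.6 ± 11.8. Nkg7 was at 10.03 ± 2.66 CPM in FWT and 8.78 ± 2.29 in FLKO. In each of these the difference between the female means was smaller than the SD of either group. Il2rb was at 11.98 ± 2.39 CPM in MWT and 11.7 ± 1.76 in FWT, and Ccr9 at 11.9 ± 1.84 and 12.6 ± 2.06. Klrd1 was at 1.99 ± 0.560 CPM in MWT and 1.74 ± 0.453 in MLKO, and Cd2 at 2.87 ± 1.17 and 2.08 ± 0.327. Cxcr6 was at 6.56 ± 1.18 CPM in MLKO and 6.94 ± 1.08 in FLKO, and Fasl at 1.55 ± 0.266 and 1.81 ± 0.478. For each of Il2rb, Ccr9, Klrd1, Cd2, Cxcr6 and Fasl, the values of the pair of groups given here overlapped.

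The least abundant members limit what can be read from them. Klre1 was at 0 to 0.770 CPM, with 0 counts in MLKO replicate 3, where 3 counts would be 0.167 CPM. Eomes was at 0.0505 to 0.842 CPM with 1 count in its lowest library. Xcl1, a chemokine that draws cross-presenting dendritic cells, was at 0.151 CPM, or 3 counts, in MWT replicate 1 and at up to 1.99 CPM elsewhere; its log2 fold change in males was 0.62 ± 0.50. Prf1 (0.794 to 3.31 CPM), Tbx21, which codes for T-bet (1.26 to 3.26 CPM), and Fasl (1.03 to 2.30 CPM) were also low, and no difference of theirs was called at this depth.

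The remaining members were not called in any of the 7 comparisons by edgeR with all libraries. DESeq2 called Cd6 between the sexes over both genotypes (-0.52, adjusted p = 0.0478), and edgeR called Cd3e there in 1 of the 16 fits that left out 1 library. They ranged from 3.67 to 9.04 CPM for Cd3d, 8.30 to 14.8 for Cd3e, 4.57 to 8.87 for Cd247, 3.63 to 12.1 for Zap70 and 4.79 to 18.1 for Lat among the receptor and signalling genes. Cd8b1 lay between 1.86 and 5.50 CPM, Cd6 between 5.34 and 17.9, Cd28 between 3.41 and 7.30 and Itgae, the CD103 chain, between 16.1 and 35.9. Among natural killer-type receptors Cd160 lay between 3.42 and 7.24 CPM and Cd96 between 3.68 and 11, and Ctla4 between 2.10 and 5.56. For Cd3d, Zap70, Lat and Cd6 the highest library was FLKO replicate 3. For 4 members, Cd247, Itgae, Cxcr6 and Foxp3, another gene lies on the opposite strand over part of the same interval, and whether the counting used strand was not given in the sources used here.

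A second list of 54 T and natural killer cell genes outside the 40 was tested in the same fits. In males 0 of the 43 tested were called by edgeR between genotypes (1 at an unadjusted p below 0.05, against 5.29% of all genes) and in females 0 of 46 (5 unadjusted, against 11.7%). Between the sexes over both genotypes 4 of 47 (8.51%) were called, all lower in males, against 11% of all genes called and 5.44% called lower. These were Il7r, the interleukin 7 receptor chain (-0.57 ± 0.10), Thy1, a surface protein of T cells and some stromal cells (-0.38 ± 0.10), Ubash3a, a regulator of T cell receptor signalling (-0.81 ± 0.22), and Tyrobp, an adaptor of natural killer and myeloid cells (-0.27 ± 0.09). Their adjusted p values by edgeR were 0.0036, 0.0262, 0.0249 and 0.0449. Il7r was at 4.73 to 7.37 CPM in the males and 7.39 to 10.6 CPM in the females. The sexes did not overlap, but the nearest libraries were 7.37 and 7.39 CPM. The share of all genes that did not overlap between the sexes was not taken.

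Among 31 ligands and counter-receptors of the members, Cxcl9 was higher in liver knockout males, where the order of the title numbers and the genotype cannot be told apart. It was at 16, 17.1, 20.2 and 18.2 CPM in MWT and 29.4, 24.6, 30.3 and 29.4 CPM in MLKO (log2 fold change 0.68 ± 0.10, adjusted p = 0.0106 by edgeR), while its receptor Cxcr3 was at 2.63 ± 0.622 and 2.37 ± 0.188 CPM (-0.14 ± 0.21). Cxcl10, another ligand of Cxcr3, was at 5.77 ± 0.669 and 9.93 ± 1.45 CPM without passing the test (0.79 ± 0.14, adjusted p = 0.0669 by edgeR). In females Cxcl9 was at 28.7 ± 8.19 CPM in FWT and 27.4 ± 11.5 in FLKO. Ligands of the integrins and of Ccr9 gave no call between genotypes in either sex.

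Between the sexes over both genotypes, 5 of the 31 ligands, all of them tested, were called lower and 1 higher in males by edgeR, against 5.44% of all genes called lower and 11% called in either direction. The lower ones were Vcam1, an endothelial and stromal adhesion molecule (-0.46 ± 0.10), Cd86, a ligand of Cd28 and Ctla4 (-0.49 ± 0.12), Cd1d1, which presents lipids to natural killer T cells (-0.48 ± 0.11), and the class I molecules H2-K1 (-0.23 ± 0.07) and H2-T23 (-0.22 ± 0.07). The higher one was Btnl4, a butyrophilin-like gene of the gut epithelium (0.27 ± 0.08). The butyrophilin-like family is known for shaping gamma-delta intraepithelial lymphocytes, and the other 3 members of it on the list gave no call.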

How the data were processed

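RNA-seq of ileum was deposited as 1 count table for 16 libraries of 4 groups. Per the methods of the study, the authors aligned 100-base single-end reads of a stranded polyA kit to mm10 with STAR 2.5.2 and counted exon reads per gene with HOMER 4.10, without normalization. The deposited values are whole-number counts. Groups came from the sample labels. The 40 members and all other gene lists were chosen with earlier results of these data known. Genes were kept with edgeR's filterByExpr, scaled with TMM and tested with edgeR 4.0.16 (R 4.3.3, robust quasi-likelihood test), with Benjamini-Hochberg adjustment over all tested genes and a threshold of 0.05. Fold changes are log2 with the SE of the fit. CPM values use TMM-scaled library sizes, and levels per kb divide by exon length. DESeq2 1.42.0 was an alternative. The code was tested on simulated counts. Permutation tests were two-sided. Members given with values in every group were those with an adjusted p below 0.05 in any comparison, the most abundant of each role and the 5 with the smallest unadjusted p of each comparison; the others are given by range. Genes of other lists were named where called, and some others as examples of their list or as partners of a member.

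The libraries held 15739601 to 60324336 counts, and 3 counts correspond to 0.0497 to 0.191 CPM, for counting error only. Replicates differed beyond sampling noise (chi-square per degree of freedom of 9.26 to 30.8), so none was counted as a repeat. The labels do not say how the libraries relate to separate mice, so p-values measure the spread between these libraries.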

Additional observations from a re-analysis of the deposited data

Results flagged for a closer look

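In groups of 4 libraries, a library was singled out when its gap to the nearest other, as a share of the range of the group, exceeded Dixon's 95% critical value, which chance does in about 1 of 20 groups. Of 208 groups tested, 14 were, 10 of them single members among 160, and 4 of the 14 were in FLKO replicate 3, the library with most B cell markers.

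In FLKO replicate 3, Cd8a was at 31.6 CPM (the others at 16.1 to 18.4), Cd8b1 at 5.50 (2.73 to 3.08) and Il2rb at 19.4 (11.7 to 12.6), and the summed level of the effector transcription factors and Il2rb was 23.5 CPM (13.6 to 14.6). In FWT replicate 4, Gzma was at 53.4 CPM (98.4 to 101) and Itgb7 at 23.4 (33.3 to 34.5), the cytotoxic effectors summed to 91.1 CPM (166 to 176), and the effector transcription factors and Il2rb to 10.6 CPM (14.6 to 15.2).

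Among males, Cd8a was at 17.1 CPM in MWT replicate 1 (24.7 to 25.6). In MWT replicate 4, Klrd1 was at 2.82 CPM (1.63 to 1.79) and Klre1 at 0.770 (0.202 to 0.281). Gzmb was at 31.0 CPM in MLKO replicate 2 (39.7 to 40.3), and Il2rb at 14.2 CPM in MLKO replicate 4 (10.8 to 11.4). The chemokine receptors summed to 23.4 CPM in the B cell-rich MWT replicate 2 (19.2 to 19.7).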

How the results depend on the processing

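Of 343 alternative values for the 7 counts of called members and the 7 medians, 323 stayed within the limits set, and no called value changed sign. The limit for a median was a move of 0.257, the SD between replicates of the members' median log2 CPM. Every median stayed within it, also those that changed direction, so the 323 do not measure how stable the medians were. The main count was 0 in every comparison but that of the sexes over both genotypes. No member was called under any alternative between genotypes in females, between genotypes over both sexes, in the interaction or between control males and females. Between genotypes in males, DESeq2 called 1 member, and leaving out 1 library gave 0 to 1, with Gzma called without MWT replicate 1. Between knockout males and females, DESeq2 called 7, no filter 2, 1 fit over all 16 libraries 2, and leaving out 1 library 0 to 3, the 3 being without FLKO replicate 4. Between the sexes over both genotypes, the 5 calls became 1 with the B cell marker level as a covariate, 3 without the B cell-rich libraries, 0 with the title number as a covariate, 0 with title number sets as a factor and 0 at an absolute log2 fold change of at least 1. Leaving out 1 library gave 1 to 6 calls, with 1 without MLKO replicate 3 or FLKO replicate 3, and Cxcr3 called in all 16 of these fits. The cause was not tested. The medians changed direction between genotypes in females (-0.08 to 0.20), where they were below 0 with the B cell level as a covariate and without FWT replicate 4 or FLKO replicate 3, and over both sexes (-0.07 to 0.14), where they were below 0 with that covariate and without MWT replicate 1, MWT replicate 4, MLKO replicate 2, FWT replicate 4 or FLKO replicate 3.

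Same-numbered libraries correlated between -0.104 and 0.256 (24 pairs, median -0.003), so the numbers were not taken to pair them. With a replicate block, 4 members were called between the sexes (Cd4 lost, log2 fold change -0.39, adjusted p = 0.0513 by edgeR) and 0 in every other comparison.

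Over all genes, calls in males were 8, 59 by DESeq2, 25 without a filter, 16 with the block, 3 with the title number, 4 in 1 fit over all libraries and 5 to 29 leaving out 1. In females they were 6, 156 by DESeq2, 15 without a filter, 10 by the newer quasi-likelihood method or with the deepest library thinned, 15 with the block, 12 in 1 fit, 0 to 4 leaving out 1 and 2 without the B cell-rich libraries. Over both sexes they were 42, 222 by DESeq2, 16 with the block, 2 and 0 with the title number and its sets, 5 to 102 leaving out 1 and 5 without the B cell-rich libraries. Between control sexes they were 38, 240 by DESeq2, 71 without a filter, 14 at 10 counts in every library, 12 in a non-robust fit, 17 with the title number or B cell level, 9 to 64 leaving out 1 and 21 without the B cell-rich libraries. Between knockout sexes they were 15 (9 higher, 6 lower), 1039 by DESeq2, 78 with upper-quartile scaling (14 higher, 64 lower), 139 without a filter, 1 at 10 counts, 8 non-robust, 403 in 1 fit, 7 to 665 leaving out 1 and 33 without the B cell-rich libraries. Between the sexes over both genotypes they were 1723 (875 higher, 848 lower), 2426 by DESeq2, 1621 with upper-quartile scaling (424 higher, 1197 lower), 326 and 90 with the title number and its sets, 846 with the B cell level, 934 to 1956 leaving out 1 and 897 without the B cell-rich libraries. The interaction gave 0, and 0 to 1 leaving out 1.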
